A study of Mus musculus with 6 samples.

Results

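The genes described here carry the catecholamine signal of the heart muscle cell from the receptor at its surface to protein kinase A (PKA). They were chosen by their mouse gene symbols, with earlier results of these data known. They are the receptor genes Adrb1, Adra1a and Adra1b, the receptor kinase gene Grk5, the G protein gene Gnas, the adenylyl cyclase genes Adcy5 and Adcy6 and the PKA genes Prkaca and Prkar1a, which makes 9 of the 43629 genes in the count tables. All 9 had enough reads to be tested, with between 148 and 7750 counts in a heart.

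The RNA came from left ventricles of 6 CD-1 males that were 1 year old. For 3 of them, the dam had been injected intraperitoneally with normal saline (vehicle) once a day during early gestation, and for the other 3 the dam had been given caffeine at 20 mg/kg in the same way. The treatment field of the labels gives the injections as E6.5 to E9.5 (embryonic days), while the RNA extraction field ends them at E10.5. Neither the labels nor the methods give the litter of each mouse. The p-values here thus treat the hearts as independent and set differences against the spread between them. Cardiac responses to dobutamine, a β-adrenergic agonist, were measured in offspring of the same study at younger ages, and not at 1 year. The comparison below asks whether RNA of the signalling pathway that dobutamine acts on differed between the 1 year old hearts of the 2 groups.

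In this pathway, noradrenaline and adrenaline bind β-adrenergic receptors, the receptor activates the stimulatory G protein Gαs, and Gαs activates adenylyl cyclase, which makes cyclic AMP (cAMP). Cyclic AMP releases the catalytic subunits of PKA from their regulatory subunits, and PKA then phosphorylates proteins of calcium handling and contraction, so that the heart beats faster and more forcefully. G protein-coupled receptor kinases and arrestins switch the stimulated receptor off. The α1-adrenergic receptors use the same ligands but couple through Gq to phospholipase C.

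In the quasi-likelihood test of edgeR, none of the 9 genes met both limits used by the study, which are an adjusted p (Benjamini-Hochberg) under 0.05 and a change of more than 1.5-fold in either direction. Across all 13092 genes tested, 0.107% passed these thresholds, 0.0840% with higher and 0.0229% with lower levels in the caffeine-treated hearts. Below, genes past the thresholds are those of this test unless another is named. The adjusted p-values of the 9 genes from that test ran from 0.214 for Adcy6 to 0.829 for Prkaca. At an unadjusted p below 0.05 there were 6 of the 9, 5 of them with lower levels in the caffeine-treated group (Adrb1, Adra1a, Adra1b, Adcy5 and Adcy6) and 1 with a higher level (Grk5). The same unadjusted limit was met by 8.82% of all genes, 4.40% lower and 4.42% higher. EdgeR's exact test, the DESeq2 Wald test and limma-voom also placed 0 of the 9 past both thresholds. In 4 genes, Adrb1, Adra1a, Adcy5 and Adcy6, every caffeine-treated heart lay below every vehicle-treated heart, a pattern that 7.12% of all genes showed. In Prkar1a every caffeine-treated heart lay above, as in 7.11% of all genes. The median log2 fold change of the 9 was −0.37, with 7 values below 0 and 2 above, while the median of all genes tested was 0.00088.

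The total counts ran from 9228359 to 10483101 in the vehicle-treated hearts and from 7613011 to 9153997 in the caffeine-treated hearts. At this depth 3 counts correspond to between 0.284 and 0.42 CPM (counts scaled by the library sizes after TMM normalization). The 95% intervals in the text are for the log2 fold change between the groups. Their width rests on the spread between hearts, which the edgeR fit draws partly from other genes. The intervals do not give the range of single hearts. Markers of the ventricular muscle cell were abundant in all hearts, with a summed level of 7 genes between 50676 and 59650 CPM in the vehicle-treated group and between 50543 and 54230 CPM in the caffeine-treated group. Fibroblast markers summed to between 676 and 779 CPM in the vehicle-treated hearts and between 823 and 967 CPM in the caffeine-treated hearts. Most of that sum was Dcn. The other 4 fibroblast markers overlapped between the groups, and all 5 had a log2 fold change above 0. Macrophage markers summed to between 71.0 and 110 CPM and between 89.8 and 166 CPM, which overlapped and were mostly C1qa. Endothelial markers (593 to 692 CPM against 631 to 664 CPM), smooth muscle and pericyte markers (770 to 896 CPM against 749 to 927 CPM) and blood markers (712 to 1332 CPM against 770 to 1627 CPM) overlapped between the groups. Lymphocyte markers summed to at most 1.58 CPM and adipocyte markers to at most 2.05 CPM in any heart. The atrial list summed to between 53.4 and 182 CPM in the vehicle-treated and between 267 and 435 CPM in the caffeine-treated hearts, and nearly all of it was Nppa, which the ventricle can also express. No gene of these lists passed the thresholds. In RNA of whole tissue, fewer cells of a type and less RNA per cell cannot be told apart, and the part of cell composition in the results below was not tested.

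The sequence just before the transcription start of a gene is where many of its control elements lie. A regulatory sequence of interest in this pathway is the cAMP response element (CRE, TGACGTCA), bound by the transcription factor CREB, which PKA phosphorylates. The 250 bases before each RefSeq start were read from the GRCm38.p6 promoter table, which holds entries for 7 of the 9 genes and none used here for Adra1a and Adcy6. Both strands were searched for the CRE, for its core TGACG and for the GC box GGGCGG, a site of Sp1-type factors. Among 32817 windows of this length over all genes, 1.55% held a full CRE, 17.7% a core and 32.7% a GC box. A full CRE contains the core on each strand. Of the 17 windows of the 7 genes, 1 window of Prkar1a held a full CRE. Shown are the windows of the main cardiac β-receptor gene, of a cardiac cyclase gene, of the only member with a mean difference near 2-fold, and of Prkar1a with its CRE. Capitals mark matches to these motifs on either strand:

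Adrb1 (chr19:56721867-56722116, plus strand): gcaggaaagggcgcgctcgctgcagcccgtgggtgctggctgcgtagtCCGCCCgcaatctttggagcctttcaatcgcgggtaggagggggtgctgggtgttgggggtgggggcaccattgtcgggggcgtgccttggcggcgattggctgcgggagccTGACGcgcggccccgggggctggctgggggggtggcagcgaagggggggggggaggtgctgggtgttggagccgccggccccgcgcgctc
Adcy5 (chr16:35154614-35154863, plus strand): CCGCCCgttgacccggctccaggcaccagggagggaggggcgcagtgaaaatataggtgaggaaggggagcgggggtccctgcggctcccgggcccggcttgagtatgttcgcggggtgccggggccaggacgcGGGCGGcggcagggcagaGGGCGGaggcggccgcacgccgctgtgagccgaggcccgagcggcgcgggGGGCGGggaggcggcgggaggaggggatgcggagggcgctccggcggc
Grk5 (chr19:60889499-60889748, plus strand): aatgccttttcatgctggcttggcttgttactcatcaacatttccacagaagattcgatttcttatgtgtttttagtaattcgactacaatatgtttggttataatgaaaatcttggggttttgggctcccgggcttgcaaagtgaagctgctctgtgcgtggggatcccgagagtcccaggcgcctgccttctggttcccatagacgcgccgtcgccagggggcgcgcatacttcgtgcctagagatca
Prkar1a (chr11:109650699-109650948, plus strand): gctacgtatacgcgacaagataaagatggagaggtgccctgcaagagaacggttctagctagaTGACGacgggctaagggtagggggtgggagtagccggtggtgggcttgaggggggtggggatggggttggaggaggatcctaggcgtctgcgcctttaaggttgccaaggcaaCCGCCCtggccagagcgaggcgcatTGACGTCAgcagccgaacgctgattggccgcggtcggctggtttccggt

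The Adrb1 window was 74.0% G and C and held 1 core and 1 GC box. The Adcy5 window was 78.0% G and C and held 4 GC boxes and no CRE core. The Grk5 window was 49.6% G and C and held none of the 3 motifs. The Prkar1a window held the CRE, which accounts for 2 of its 3 cores, and 1 GC box. A match says only that the letters are present.

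**Figure D1:**
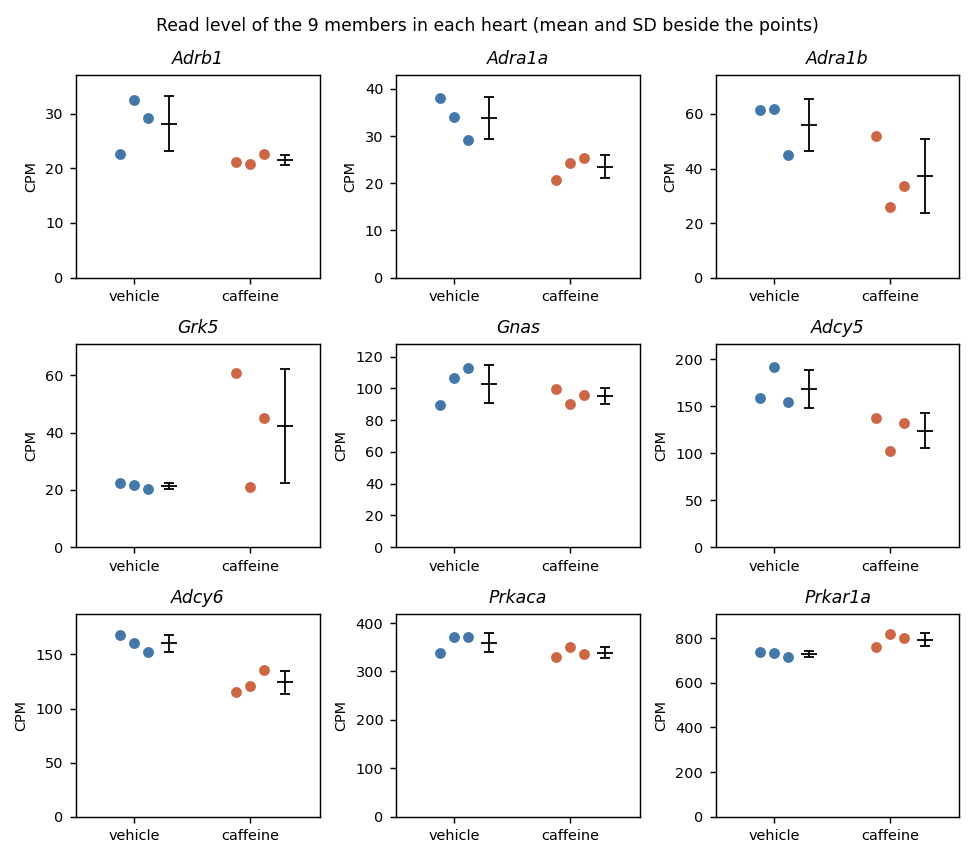
Level of each of the 9 genes (CPM, vertical axes from 0, each panel with its own scale) in the 3 vehicle-treated and 3 caffeine-treated hearts, with the mean and SD of each group beside the points. The caffeine-treated hearts lay below the vehicle-treated hearts for Adrb1, Adra1a, Adcy5 and Adcy6, above them for Prkar1a, and in 2 of 3 hearts far above them for Grk5.

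Among the receptors, Adrb1 encodes the β1-adrenergic receptor, the main β-receptor of ventricular muscle cells. It lies on chromosome 19 of GRCm38 from 56722199 to 56733113 (plus strand, ENSMUSG00000035283). Its level was 22.7, 32.5 and 29.3 CPM in the vehicle-treated hearts (replicates 1 to 3) and 21.1, 20.8 and 22.6 CPM in the caffeine-treated hearts. The groups did not overlap, but vehicle replicate 1 and caffeine replicate 3 were almost level, and with library sizes alone as the scaling the groups overlapped. The caffeine-treated hearts were close to each other, with an SD of 0.987 CPM against 5.0 CPM among the vehicle-treated hearts (n = 3 each). Its log2 fold change was −0.39 (95% interval −0.70 to −0.08, edgeR adjusted p = 0.422).

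Adra1a encodes the α1A-adrenergic receptor and lies on chromosome 14 from 66635251 to 66771168 (plus strand, ENSMUSG00000045875). It had 38.1, 34.1 and 29.2 CPM in the vehicle-treated hearts and 20.7, 24.4 and 25.4 CPM in the caffeine-treated hearts. The groups did not overlap, with means of 33.8 ± 4.47 CPM and 23.5 ± 2.48 CPM (SD, n = 3 each). It differed by a log2 fold change of −0.52 (standard error 0.13, edgeR adjusted p = 0.226), short of the 1.5-fold limit, which is 0.585 on this scale.

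Adra1b encodes the α1B-adrenergic receptor and lies on chromosome 11 from 43774606 to 43901210 (minus strand, ENSMUSG00000050541). Its level was 61.5, 61.7 and 45.1 CPM in the vehicle-treated hearts and 52.1, 26.0 and 33.7 CPM in the caffeine-treated hearts. Caffeine replicate 1 lay between the vehicle-treated hearts, so the groups overlapped, and the other caffeine-treated hearts lay below all of them. The log2 fold change of −0.60 was past the fold limit (95% interval −1.07 to −0.13) but its edgeR adjusted p was 0.413. An exact permutation test on its log2 CPM, which uses only these 6 hearts, gave a two-sided p of 0.2. Without caffeine replicate 1 the log2 fold change was −0.91 (edgeR adjusted p = 0.15), and without caffeine replicate 2 it was −0.39 (adjusted p = 0.594). With no filter on low counts the gene passed both thresholds (edgeR adjusted p = 4.47e-05), as 1 of 95 lower genes among the 22407 in that fit.

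Other adrenergic receptor genes had low levels. Adra1d, the α1D-receptor gene, averaged 5.28 ± 0.181 and 5.26 ± 1.65 CPM (SD, n = 3 each). Adra2b averaged 0.858 and 1.03 CPM. Adrb3 had at most 1 count, Adra2a at most 2 and Adra2c at most 19 counts in a heart, and these 3 genes were not tested. Of the 6 receptor genes tested, 0 passed the thresholds in either direction. The 3 at an unadjusted p below 0.05 were the 3 described above, all lower, beside 4.40% lower of all genes tested.

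To compare genes with each other, CPM were divided by the length of all annotated exons of a gene in kilobases (RPKM). On that scale Adra1b made up 49.4% ± 4.63 (SD, n = 3) of the summed level of the 9 receptor genes in the vehicle-treated hearts and 43.1% ± 8.37 in the caffeine-treated hearts. Adrb1 made up 25% ± 4.71 and 25.8% ± 4.05, and Adra1a 11.6% ± 1.13 and 11% ± 2.64. The summed level was 33.9, 36.3 and 30.0 RPKM in the vehicle-treated and 29.4, 21.3 and 24.3 RPKM in the caffeine-treated hearts, lower in every caffeine-treated heart, while the shares of these 3 genes overlapped between the groups. The gap between vehicle replicate 3 and caffeine replicate 1 was small. The ratio of Adra1a to Adra1b within a heart, which the scaling of libraries does not enter, was 0.240, 0.214 and 0.251 in the vehicle-treated hearts and 0.154, 0.364 and 0.293 in the caffeine-treated hearts. The vehicle-treated hearts lay inside the range of the caffeine-treated ones (difference 0.12 on the log2 scale, exact permutation test, two-sided p = 0.8). The ratio of Adrb1 to Adra1b overlapped too, with 0.369, 0.526 and 0.650 against 0.407, 0.800 and 0.673 (exact permutation test, p = 0.5). With 3 hearts against 3, this test cannot give a p below 0.1.

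**Figure D2:**
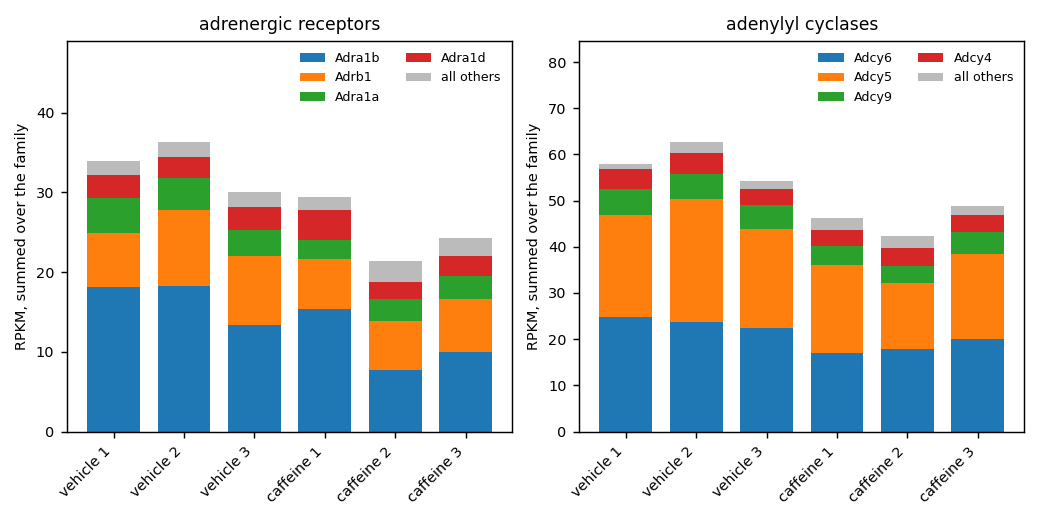
Summed level per kilobase (RPKM, vertical axis from 0) of the adrenergic receptor genes (left) and of the adenylyl cyclase genes (right) in each of the 6 hearts, with the colours showing the 4 most abundant genes and grey all others. The sums of the caffeine-treated hearts were below those of the vehicle-treated hearts in both families, narrowly so for the receptors (30.0 against 29.4 RPKM between the nearest hearts), while Adra1b, Adrb1, Adcy5 and Adcy6 held most of the sum in every heart.

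Grk5 encodes G protein-coupled receptor kinase 5, which phosphorylates activated β-receptors and so lets arrestins bind them. It lies on chromosome 19 from 60889749 to 61095968 (plus strand, ENSMUSG00000003228). The vehicle-treated hearts were alike, with 22.5, 21.7 and 20.3 CPM, and the caffeine-treated hearts had 60.8, 21.1 and 45.3 CPM. Caffeine replicates 1 and 3 thus had more than 2 times the level of every vehicle-treated heart, and caffeine replicate 2 was at the vehicle level. The mean was 21.5 ± 1.12 CPM in the vehicle-treated and 42.4 ± 20.0 CPM in the caffeine-treated hearts (SD, n = 3 each), a log2 fold change of 0.97 (95% interval 0.34 to 1.6, edgeR adjusted p = 0.302). The exact permutation test on the log2 CPM of Grk5 gave a two-sided p of 0.3. Without caffeine replicate 2 the log2 fold change was 1.3 and passed both thresholds (edgeR adjusted p = 0.0117). Without caffeine replicate 1 it was 0.63 (adjusted p = 0.614), so its size and its call depended on which caffeine-treated hearts were kept. With no filter on low counts the gene also passed them (edgeR adjusted p = 2.89e-10), as 1 of 145 higher genes among the 22407 in that fit.

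Grk2, the most abundant receptor kinase, averaged 88.3 ± 4.52 CPM in the vehicle-treated and 82.4 ± 2.22 CPM in the caffeine-treated hearts (SD, n = 3 each), and the interval of its log2 fold change ran from −0.29 to 0.09. Grk3 had 22.1, 28.9 and 21.3 CPM against 20.3, 15.9 and 16.3 CPM, lower in every caffeine-treated heart, with a log2 fold change of −0.47 (edgeR adjusted p = 0.369). Grk4 (2.15, 1.99 and 1.82 CPM against 2.66, 1.92 and 3.28 CPM) and Grk6 (16.6, 14.8 and 16.2 CPM against 20.9, 15.7 and 17.5 CPM) were, like Grk5, above every vehicle-treated heart in caffeine replicates 1 and 3 and within the vehicle range in caffeine replicate 2, by smaller margins. Their log2 fold changes were 0.39 and 0.18, with edgeR adjusted p-values of 0.767 and 0.777. The arrestin genes Arrb1 (21.6 and 22.0 CPM) and Arrb2 (5.06 and 6.24 CPM) overlapped between the groups. Per kilobase, Grk5 made up 10.2% ± 0.703 (SD, n = 3) of the kinase genes' summed level in the vehicle-treated hearts and 18.7% ± 7.30 in the caffeine-treated hearts. Grk2 made up 66.4% ± 1.34 and 59.4% ± 7.93. Of the 7 kinase and arrestin genes tested, 0 passed the thresholds, and Grk5 and Grk3 were those at an unadjusted p below 0.05 (8.82% of all genes).

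Gnas encodes Gαs and lies in an imprinted locus on chromosome 2 from 174284320 to 174346744 (plus strand, ENSMUSG00000027523). Its level was 89.3, 107 and 113 CPM in the vehicle-treated hearts and 100, 90.2 and 96.0 CPM in the caffeine-treated hearts. The caffeine-treated hearts lay inside the range of the vehicle-treated hearts. The log2 fold change was −0.11 with an interval from −0.34 to 0.12 (edgeR adjusted p = 0.823), which corresponds to between 0.793 and 1.08 of the vehicle level. The counts do not separate the transcripts that start at different promoters of this gene. The antisense gene Nespas and the gene Gm20721 share 988 and 1469 exonic bases with it on the opposite strand, and had 0 counts in all hearts. The strand setting of the counting is not given, so what the shared bases did to the Gnas counts cannot be told.

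The adenylyl cyclases of types 5 and 6 are the main forms in heart muscle. Adcy5 lies on chromosome 16 from 35154877 to 35305738 (plus strand, ENSMUSG00000022840). It had 159, 192 and 154 CPM in the vehicle-treated hearts and 137, 103 and 133 CPM in the caffeine-treated hearts, with no overlap. Its log2 fold change was −0.44 (95% interval −0.72 to −0.17, edgeR adjusted p = 0.285). Adcy6 lies on chromosome 15 from 98589973 to 98610076 (minus strand, ENSMUSG00000022994) and had 168, 161 and 152 CPM in the vehicle-treated and 116, 121 and 136 CPM in the caffeine-treated hearts. Here too every caffeine-treated heart was lower. The estimate was −0.37 on the log2 scale (95% interval −0.57 to −0.17) and the edgeR adjusted p of 0.214 was the smallest of the 9 genes. Both values were short of the 1.5-fold limit. The antisense gene Gm29331 shares 605 exonic bases with Adcy6 on the opposite strand and had 0 counts in all hearts, with the same limit as for Gnas.

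Within a heart the ratio of Adcy6 to Adcy5 per kilobase was 1.12, 0.888 and 1.05 in the vehicle-treated and 0.895, 1.25 and 1.09 in the caffeine-treated hearts. These ranges overlapped (difference 0.08 on the log2 scale, exact permutation test, two-sided p = 0.7). Adcy5 and Adcy6 together were the bulk of the cyclase RNA, with 40.1% ± 2.26 and 40.6% ± 2.49 (SD, n = 3) of the family's summed level in the vehicle-treated hearts and 37.6% ± 3.74 and 40.0% ± 2.74 in the caffeine-treated hearts. The summed level was 58.0, 62.7 and 54.2 RPKM against 46.2, 42.3 and 48.9 RPKM, lower by 21.4% in the mean. Adcy9 came next, with 29.3, 27.7 and 26.2 CPM against 20.9, 19.3 and 24.0 CPM, again lower in every caffeine-treated heart (log2 fold change −0.38, edgeR adjusted p = 0.351). Adcy4 averaged 19.3 and 17.6 CPM. The scarcer cyclase genes pointed the other way or had wide intervals. Adcy3 had 1.76, 2.27 and 1.42 CPM against 2.52, 2.48 and 3.28 CPM (log2 fold change 0.60, adjusted p = 0.605), Adcy7 averaged 6.64 and 8.20 CPM, and Adcy1 averaged 5.22 and 7.10 CPM. Adcy2, Adcy8 and Adcy10 had at most 9 counts in a heart and were not tested. Of the 7 cyclase genes tested, 0 passed the thresholds, with 3 lower at an unadjusted p below 0.05 (Adcy5, Adcy6 and Adcy9). Of all genes tested, 4.40% were lower at that limit.

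**Figure D3:**
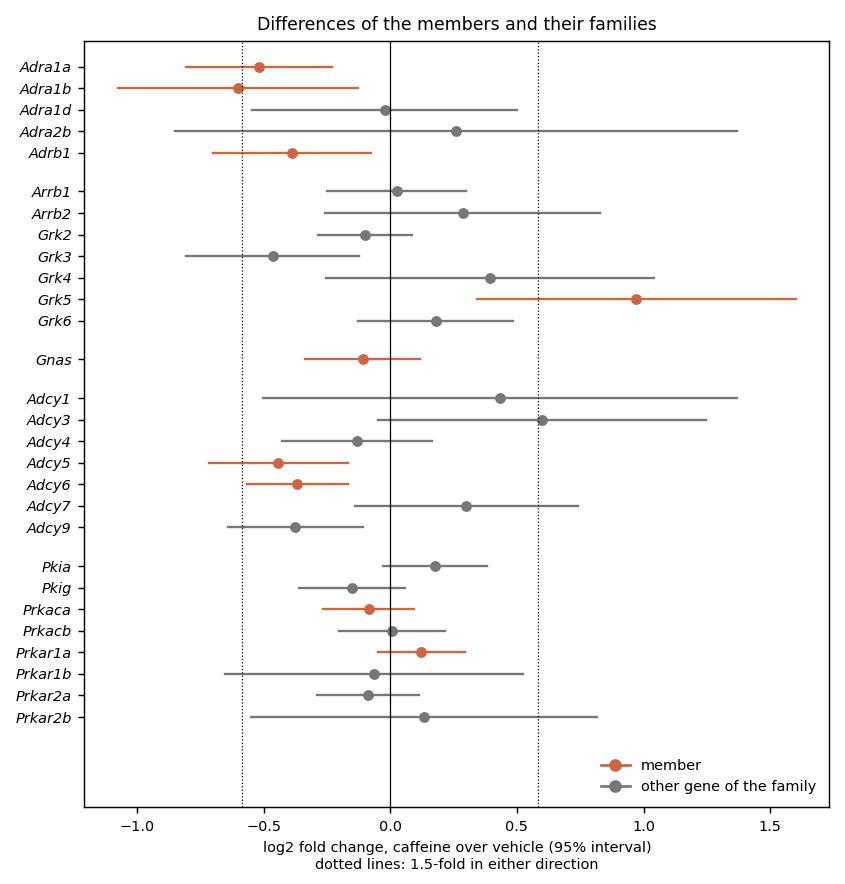
Log2 fold change of caffeine-treated over vehicle-treated hearts with its 95% interval (horizontal axis) for the 9 genes, in orange, and for other tested genes of their families, in grey, with dotted lines at 1.5-fold in either direction. The intervals of Adrb1, Adra1a, Adra1b, Adcy5 and Adcy6 lie below 0 and that of Grk5 above 0, while those of Gnas, Prkaca and Prkar1a include 0, and no gene passed both thresholds after adjustment.

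Per kilobase the PKA genes were the most abundant of the 9. Prkaca encodes the catalytic subunit Cα and lies on chromosome 8 from 83972993 to 83996443 (plus strand, ENSMUSG00000005469). It had 338, 371 and 371 CPM in the vehicle-treated hearts and 329, 351 and 337 CPM in the caffeine-treated hearts. The groups overlapped, and the interval of the log2 fold change ran from −0.26 to 0.09 (estimate −0.08, edgeR adjusted p = 0.829). Prkar1a encodes the regulatory subunit RIα, which holds the catalytic subunit inactive until cAMP binds. It lies on chromosome 11 from 109649405 to 109669656 (plus strand, ENSMUSG00000020612) and had 737, 733 and 714 CPM in the vehicle-treated and 761, 818 and 800 CPM in the caffeine-treated hearts. All caffeine-treated hearts were above, by a small margin, and with library sizes alone as the scaling the groups overlapped. The log2 fold change was 0.12 (95% interval −0.05 to 0.30, edgeR adjusted p = 0.707).

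The ratio of Prkaca to Prkar1a per kilobase was 0.795, 0.878 and 0.902 in the vehicle-treated hearts and 0.751, 0.746 and 0.732 in the caffeine-treated hearts. Every caffeine-treated heart was lower, and the caffeine-treated hearts were closer to each other than the vehicle-treated ones. The difference was −0.21 on the log2 scale (exact permutation test, two-sided p = 0.1, the smallest that 3 hearts against 3 allow, and 0.4 after Benjamini-Hochberg adjustment over the 4 ratios compared). Leaving out each heart in turn kept it between −0.26 and −0.17.

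Among the other PKA genes, the catalytic gene Prkacb averaged 89.8 ± 7.5 and 90.1 ± 5.78 CPM (SD, n = 3 each). The regulatory gene Prkar2a averaged 160 and 150 CPM, with an interval of the log2 fold change from −0.29 to 0.11. Pkia, a PKA inhibitor, had 289, 256 and 308 CPM against 341, 310 and 313 CPM, higher in every caffeine-treated heart by a small margin (log2 fold change 0.18, adjusted p = 0.634 in the edgeR test). The inhibitor gene Pkig averaged 208 and 188 CPM. Prkar1b and Prkar2b were below 5 CPM in every heart, and Pkib had at most 9 counts and was not tested. Per kilobase, Prkaca held 93.4% ± 0.272 (SD, n = 3) of the catalytic subunit level in the vehicle-treated hearts and 93.0% ± 0.220 in the caffeine-treated hearts. Prkar1a held 86.5% ± 0.568 of the regulatory subunit level and 88.1% ± 0.398, and Prkar2a most of the rest. Of the 8 PKA genes tested, 0 were past the thresholds and 0 were at an unadjusted p below 0.05 in the same edgeR test.

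On the scale per kilobase the order of the 9 genes in the vehicle-treated hearts was Prkar1a (169 RPKM), Prkaca (145), Adcy6 (23.6), Adcy5 (23.4), Adra1b (16.6), Gnas (9.20), Adrb1 (8.32), Adra1a (3.87) and Grk5 (3.04). The hearts of Adcy6 and Adcy5 overlapped, as did those of Gnas and Adrb1, and the other neighbours did not. The place of Gnas in this order depends on the length used. All annotated exons of Gnas add up to 11186 bases, and with its principal transcript (3903 bases) its level was 26.4 RPKM, close to Adcy6 on the same basis (26.5). For Adra1a the principal transcript of 4282 bases in place of 8728 gave 7.89 RPKM, which left its place unchanged. In the caffeine-treated hearts Grk5 averaged 6.01 RPKM, near Adrb1 at 6.36 RPKM, and ranged from 2.99 to 8.61 RPKM between hearts.

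**Figure D4:**
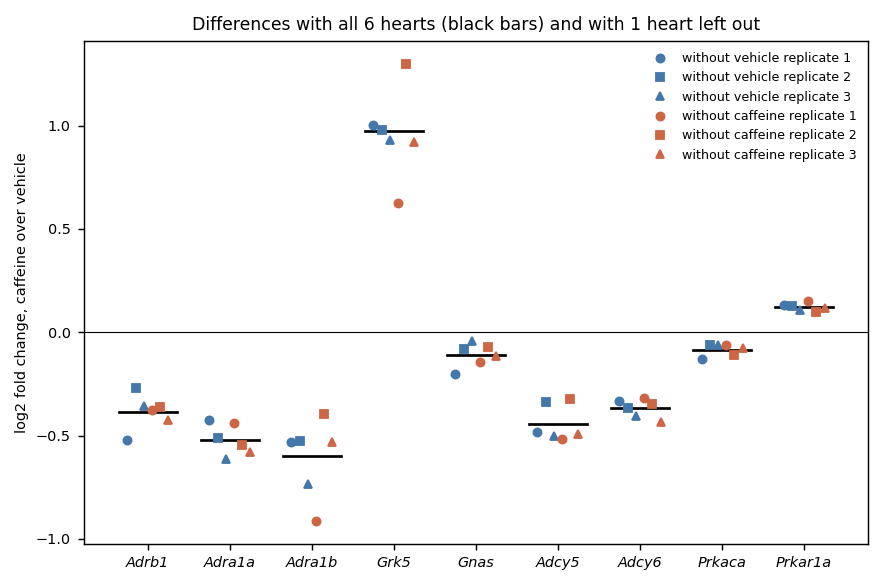
Log2 fold change (vertical axis) of each of the 9 genes in edgeR's quasi-likelihood fit with all 6 hearts (black bars) and with 1 heart left out (symbols, blue for a vehicle-treated and orange for a caffeine-treated heart). The signs were the same whichever heart was left out, and the values moved most for Grk5 (0.63 to 1.3) and Adra1b (−0.91 to −0.39).

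A list of 109 genes in 10 groups by role, also chosen with earlier results of these data known, described the wider pathway. It includes the 9 genes, and 96 genes of the list were tested. With the quasi-likelihood test of edgeR none passed the thresholds, while edgeR's exact test and DESeq2 each placed Hcn4 and Dbh past them, both lower. At an unadjusted p below 0.05 there were 4 genes higher and 15 lower, beside 4.42% and 4.40% of all genes tested, and the median log2 fold change of the list was −0.02. Without the 9 genes it was 3 higher and 10 lower of 87, with a median of −0.01.

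Among the G protein and RGS genes, the pathway's transducers and their GTPase-activating brakes, 0 of 22 passed the thresholds. At an unadjusted p below 0.05, 4 of the 22 were lower, beside 4.40% of all genes. Rgs2, an inhibitor of Gq signalling, had 36.3, 24.0 and 23.5 CPM against 20.2, 17.2 and 21.7 CPM, with no overlap (log2 fold change −0.51, edgeR adjusted p = 0.404). Without vehicle replicate 1 it was −0.27. Rgs6 averaged 5.35 ± 3.04 and 2.42 ± 0.367 CPM (SD, n = 3 each) and overlapped between the groups, with a log2 fold change of −1.13 (adjusted p = 0.422, edgeR) that was −0.66 without vehicle replicate 2. Gng7 averaged 4.05 and 2.57 CPM.

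Of the 11 A-kinase anchoring protein genes, which place PKA near its substrates, 10 had a log2 fold change below 0 and 0 had an unadjusted p below 0.05 or passed the thresholds in edgeR's test. The median of this group was −0.14, and 49.8% of all genes tested had a log2 fold change below 0. Akap6, which anchors PKA at the nuclear envelope and the sarcoplasmic reticulum, had 263, 271 and 260 CPM against 192, 270 and 219 CPM, and caffeine replicate 2 was at the vehicle level (log2 fold change −0.22, adjusted p = 0.64). Akap9 averaged 99.3 and 90.0 CPM and Akap7 averaged 24.0 and 21.6 CPM.

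Among other proteins that bind cAMP, the pacemaker channel gene Hcn4 had 15.5, 15.9 and 9.83 CPM in the vehicle-treated hearts and 7.42, 6.10 and 5.51 CPM in the caffeine-treated hearts. The groups did not overlap, and the log2 fold change of −1.12 (95% interval −1.59 to −0.66) had an edgeR adjusted p of 0.102, the smallest of the list. It passed both thresholds in edgeR's exact test (adjusted p = 0.000727) and in the DESeq2 Wald test (adjusted p = 0.00419). Hcn4 is also a marker of the conduction system, and the summed level of the 5 conduction markers was between 72.2 and 74.6 CPM in the vehicle-treated and between 41.8 and 53.1 CPM in the caffeine-treated hearts. That sum includes Hcn4 itself, and most of it was Irx3, with means of 47.0 and 36.1 CPM. Cntn2 averaged 8.22 and 0.906 CPM (log2 fold change −3.12, edgeR adjusted p = 0.0584). All 4 of the conduction markers tested, Hcn4 among them, were lower in the mean, and the part of conduction cells in the Hcn4 difference was not tested. Hcn2 had 82.7, 69.9 and 85.9 CPM against 64.1, 68.1 and 67.3 CPM, with a log2 fold change of −0.26 (edgeR adjusted p = 0.459). Bves averaged 62.3 and 52.5 CPM. In the quasi-likelihood test 0 of the 7 genes of this group tested passed the thresholds, with 2 lower at an unadjusted p below 0.05 (4.40% of all genes).

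Of the 9 tested genes for substrates of PKA in calcium handling and contraction, 0 passed the thresholds in the quasi-likelihood test of edgeR. At an unadjusted p below 0.05, 1 was higher, beside 4.42% of all genes. Hspb6, a small heat shock protein that PKA phosphorylates, averaged 1684 ± 179 CPM in the vehicle-treated and 2052 ± 171 CPM in the caffeine-treated hearts (SD, n = 3 each), a log2 fold change of 0.28 with overlapping hearts (edgeR adjusted p = 0.422). The calcium release channel gene Ryr2 and the calcium channel gene Cacna1c had log2 fold changes of −0.25 and −0.14, with intervals from −0.56 to 0.06 and from −0.36 to 0.08.

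Of the 14 tested genes of the CREB family and of genes that respond to cAMP, 11 had a log2 fold change above 0, as did 6566 of all 13092 genes. Of these 14, 0 passed the thresholds and 1 had an unadjusted p below 0.05, beside 8.82% of all genes tested. With library sizes alone as the scaling 6 of the 14 were above 0 and the median of the group turned from 0.05 to −0.04. The median of all genes tested moved too, from 0.00088 to −0.0838. A change of scaling shifts all genes nearly alike, so it cannot test where the group lies relative to that median. The gene at an unadjusted p below 0.05 was Fos, an immediate early gene with many inputs besides cAMP, with 1.27, 2.65 and 2.03 CPM against 4.06, 5.76 and 3.64 CPM (log2 fold change 1.17, 95% interval 0.48 to 1.87, edgeR adjusted p = 0.269). Nr4a1 had 9.87, 24.3 and 28.6 CPM against 26.0, 47.3 and 26.9 CPM and overlapped between the groups. Crem averaged 7.75 and 9.36 CPM.

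The enzymes and carriers that make and clear catecholamines completed the list, and in the quasi-likelihood test 0 of the 5 tested passed the thresholds. At an unadjusted p below 0.05, 1 was higher and 2 were lower, beside 4.42% and 4.40% of all genes. Dbh encodes dopamine β-hydroxylase, which makes noradrenaline and is known from sympathetic neurons. It had 17.0, 18.8 and 22.0 CPM in the vehicle-treated and 12.6, 9.26 and 6.10 CPM in the caffeine-treated hearts, with no overlap. The log2 fold change was −1.06 (95% interval −1.54 to −0.58, edgeR adjusted p = 0.134), and it passed both thresholds in edgeR's exact test (adjusted p = 0.00157) and in DESeq2 (adjusted p = 0.00296). Th, which encodes tyrosine hydroxylase, the rate-limiting enzyme of catecholamine synthesis, had 0 counts in all 6 hearts, and Slc6a2, the noradrenaline carrier, had at most 1. The neuron and Schwann cell markers summed to between 20.5 and 24.6 CPM and between 7.74 and 16.7 CPM, most of it Dbh itself. Maob, a monoamine oxidase gene, had 69.5, 64.7 and 49.1 CPM against 47.2, 43.7 and 45.7 CPM (log2 fold change −0.43, edgeR adjusted p = 0.314), and Maoa had 4.20, 3.60 and 5.37 CPM against 6.58, 5.98 and 6.8 CPM (log2 fold change 0.56, adjusted p = 0.447). Neither pair of groups overlapped, and the 2 oxidase genes lay on opposite sides. Pnmt had at most 11 counts in a heart and was not tested.

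**Figure D5:**
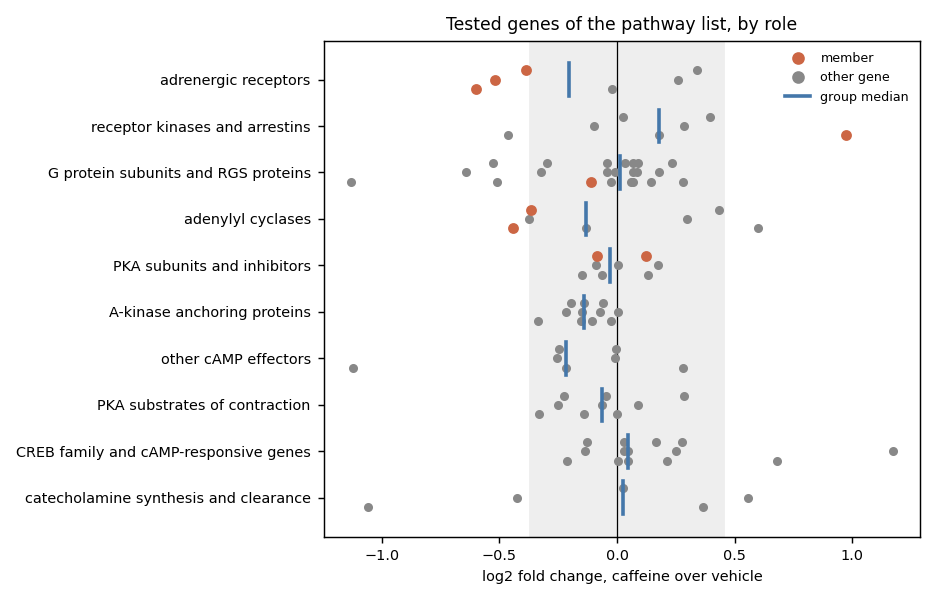
Log2 fold change of caffeine-treated over vehicle-treated hearts (horizontal axis) of the 96 tested genes of the pathway list, by role, with the 9 genes in orange, the others in grey and the group medians as blue bars. The shaded band holds the middle 90% of all 13092 genes (from −0.37 to 0.45), and Grk5, Fos, Hcn4, Dbh and Rgs6 lie farthest from 0.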

How the data were processed

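Left ventricular RNA of 3 vehicle-treated and 3 caffeine-treated mice was analysed. Poly(A) RNA was sequenced by the authors as single-end reads of 75 cycles, cleaned with FastQC, mapped to mm10 (GRCm38) with Tophat2 and counted with HTSeq on Ensembl release 79. Versions and the strand setting are not given in the sources used here. The deposited values are raw read counts per gene, without normalization or pooling.

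Counts were filtered with filterByExpr (minimum count 10, minimum total 15), which left 13092 genes, scaled by TMM and tested in edgeR (glmQLFit, glmQLFTest) in a model that held treatment alone, and adjusted p-values are Benjamini-Hochberg values over all genes tested. A standard error is the log2 fold change divided by the square root of F, and 95% intervals use the t distribution of the fit. Levels between genes are per kilobase of exons in GENCODE release 21 of the mouse series (GRCm38), which matched every listed symbol. Ratios add 0.5 to counts. Replicates of a group differed by more than sampling noise (chi-square per degree of freedom from 5.37 to 14), so each library is 1 sample.

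The 9 genes, the pathway list of 109 genes and the 11 marker lists were chosen with earlier results of these data known. Named were the 9 genes, their families, up to 3 genes with the smallest p in each other group, and any listed gene past the thresholds. Alternatives were edgeR's exact test, DESeq2, limma-voom, other scalings and filters, the replicate number as a block, no fold threshold and leaving out each heart. The fits were tested on simulated counts. The values of 1 gene of the list enter its group's counts and are not reported here. Versions used were edgeR 4.0.16, limma 3.58.1 and DESeq2 1.42.0 in R 4.3.3, and pandas 2.3.3, NumPy 2.4.6 and Matplotlib 3.10.9 in Python 3.11.15.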

Additional observations from a re-analysis of the deposited data

How the results depend on the processing

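None of the log2 fold changes of the 9 genes changed sign under any alternative run. With no filter on low counts Adra1b (−0.62) and Grk5 (0.95) passed the thresholds, which makes 2 of the 9 genes. That fit tested 22407 genes and placed 145 higher and 95 lower past the thresholds. Grk5 also passed without caffeine replicate 2 (1.3), where 15 higher and 7 lower of 13296 genes did. Its log2 fold change ranged from 0.63 to 1.3 over the hearts left out. In the fit with no filter the adjusted p of Adra1a (0.00545), Adcy5 (0.00155) and Adcy6 (0.0181) was also below 0.05, and their fold changes stayed under 1.5. Leaving out 1 heart gave between 0 and 1 of the 9 past them, and between 0 and 1 of the pathway list in each direction. Of the pathway list, 3 genes higher and 4 lower passed with no filter, 2 lower with edgeR's exact test and with DESeq2, and 1 lower (Hcn4) with library sizes alone and with the replicate block. The cause of these moves was not tested.

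Over all genes 11 were higher and 3 lower past the thresholds. The counts were 61 and 33 with the exact test, 39 and 28 with DESeq2, 145 and 95 with no filter, 29 and 11 with the replicate block, and 15 lower with library sizes alone. Leaving out 1 heart gave from 4 to 17 higher and from 0 to 13 lower. Replicate numbers are shared by the groups, but deviations of same-numbered hearts correlated by 0.045, −0.03 and −0.0375, and only the first matched its own number best, so no pairing was used, and the block changed no call of the 9 genes.

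Other scalings for the counts of genes without overlap between groups were chosen after seeing the data. With library sizes alone 3 of the 9 genes were lower without overlap and 0 higher. The share of all genes without overlap under that scaling is not given here. The median log2 fold change of all genes was −0.0838 with library sizes alone, against 0.00088 with TMM. The difference in the Adcy6 to Adcy5 ratio ranged from −0.037 to 0.20 with 1 heart left out and was reversed without vehicle replicate 2 (−0.02) or caffeine replicate 2 (−0.037). That of Adra1a to Adra1b ranged from −0.14 to 0.48 and was reversed without caffeine replicate 2 (−0.14). That of Adrb1 to Adra1b ranged from 0.04 to 0.55. Depth limits the receptor genes Adrb3, Adra2a and Adra2c, whose counts were too few to test.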

Other observations

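The 3 caffeine-treated hearts were not alike in these genes. Caffeine replicate 1 had the highest Grk5 level (60.8 CPM) and the highest Adra1b level of its group (52.1 CPM), and caffeine replicate 2 had the lowest of both (21.1 and 26.0 CPM) and the lowest Adcy5 level (103 CPM). Adrb1 varied little among the caffeine-treated hearts, with 21.1, 20.8 and 22.6 CPM. These values come from 3 hearts and were not tested.

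Dbh reads were present in every heart (6.10 to 22.0 CPM), while Th had 0 counts in all 6 and Slc6a2 at most 1. The labels do not say which cells of the ventricle were sampled, and the source of the Dbh reads was not tested.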
